A study of Zea mays with 6 samples.

Results

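The genes described here are 7 heat shock chaperone genes of maize, taken by their identifiers from a table of 39625 gene models with no filter on expression. They fall into 3 classes. hsp101 (GRMZM2G360681) encodes the HSP101 disaggregase; hsp70-4 (GRMZM2G340251), Hsp70 (GRMZM2G310431) and hsp1 (GRMZM5G802801, also listed as hsp70-5) carry HSP70 names; and HSP90-1 (GRMZM2G024668), HSP90-2 (GRMZM2G012631) and hsp82 (GRMZM5G833699) carry HSP90 names. Each of the 7 matched 1 RefSeq gene. Other gene models of these families, with or without such a name, were not sought as members. Rankings among HSP70-named or HSP90-named genes thus hold for these 7 alone.

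Transcripts were measured by RNA sequencing of mature pollen of the inbred line B73, in 3 control and 3 heat libraries that the labels call biological replicates. Control plants had days of 25 °C and nights of 21 °C. Heat plants had days of 35 °C and nights of 25 °C for 48 h, at the tetrad stage of pollen development, when the microspores left by meiosis are still joined. Humidity was 60% for both groups. All plants then returned to the greenhouse until the pollen had matured, so the values describe pollen shed after recovery and not pollen under heat. The labels do not say how many plants gave each library, so p-values measure the spread between these libraries. In bulk pollen, fewer grains of a kind and less RNA per grain cannot be told apart.

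Chaperones of these classes work in sequence on damaged proteins. HSP70 binds exposed hydrophobic stretches and releases them in an ATP-driven cycle, HSP90 acts later on near-native clients such as kinases and receptors, and HSP101, a hexameric ATPase of the ClpB family, threads proteins out of aggregates and hands them back to HSP70. HSP101 is required for acquired thermotolerance in plants. HSP70 and HSP90 also hold heat shock transcription factors inactive in unstressed cells, and mature maize pollen is known for a weak heat shock response.

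The tissue label was checked first. The 6 pollen markers (mgs1, prf1, prf2, prf3, pme1 and hap2) summed to between 37912 and 39886 TPM in the controls and between 38294 and 41040 TPM in the heat libraries. TPM is read number per gene length, brought to one fixed total in every library. The 11 green-tissue models summed to at most 1.95 TPM in any library, with 2 of them at 0 throughout, and the 2 anther wall and tapetum models to at most 1.58 TPM. Between 19086616 and 28640667 reads per library were recovered from the TPM values, with more in every control than in any heat library. Heat replicate 3 shared its 3 sequencing lanes with the controls, whereas heat replicates 1 and 2 came from 2 other lanes.

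The 7 genes lay far apart in level. hsp101 was the single abundant member and held between 96.5% and 97.1% of the TPM of the 7 genes in every library. Among the gene models above 0 it ranked from 720th to 764th by library, so that between 3.60% and 3.92% of them were more abundant. hsp70-4 ranked from 5858th to 6511th. Both reached 1 TPM in all 6 libraries, and the other 5 genes stayed below 1 TPM in every library.

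**Figure D1:**
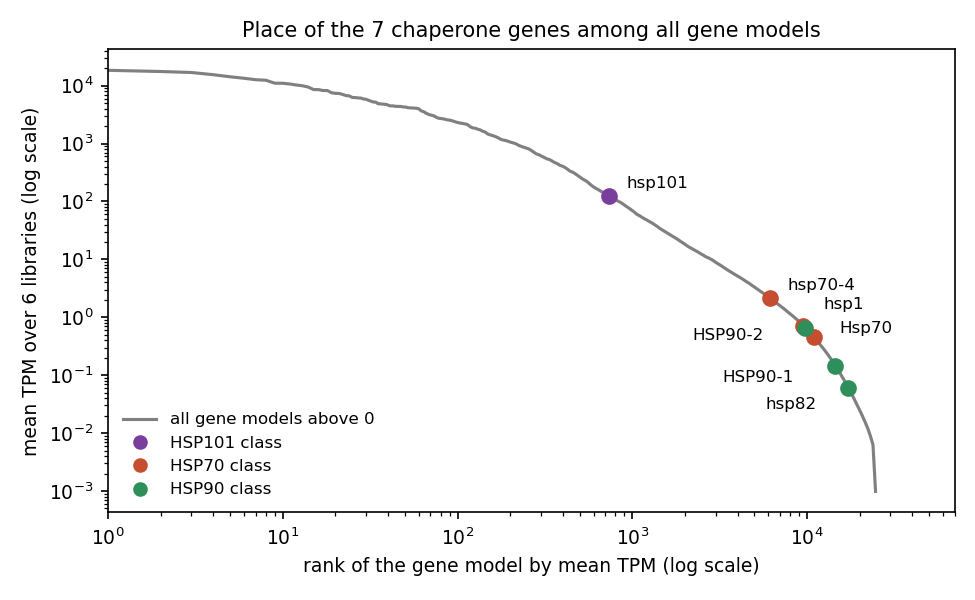
Mean TPM over the 6 libraries against rank for all gene models above 0 (grey line, both axes logarithmic), with the 7 chaperone genes as points coloured by class. hsp101 stands at rank 740 with 123.9 TPM, and the HSP90-class genes lie between rank 9770 and rank 17252.

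In control pollen the order by TPM ran hsp101, hsp70-4, HSP90-2, hsp1, Hsp70, HSP90-1 and hsp82. The step from hsp101 to hsp70-4 was 53.9-fold on the control means, and that from hsp70-4 to HSP90-2 was 2.91-fold. Neighbours did not overlap between libraries except for Hsp70 and HSP90-1, whose control means of 0.167 and 0.153 TPM did not differ beyond their spread. In heat pollen hsp1 and Hsp70 stood above HSP90-2 in the order. There the only neighbours whose libraries overlapped were HSP90-1 and hsp82, at 0.141 and 0.0970 TPM. The names group these genes by family and not by level.

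Read numbers set how precisely each level is known. hsp101 had between 4532 and 6682 reads in a library and hsp70-4 between 72 and 95. HSP90-2 had between 17 and 34, hsp1 between 14 and 25, Hsp70 between 3 and 25, HSP90-1 between 4 and 8 and hsp82 between 0 and 5. For the 5 low genes the level thus rests on a small number of fragments. How multi-mapping reads were treated is not given in the sources used, and HSP70 and HSP90 genes have close relatives in plants, so these values are uncertain to the extent that reads were shared or dropped.

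The comparison of heat with control asked whether chaperone transcripts still differed in mature pollen once the plants had recovered. On the whole table, with all 24654 gene models above 0 in any library in the fit, limma (log2(TPM + 1), Benjamini-Hochberg adjusted p below 0.05) called 1 of the 7 genes higher after heat and 0 lower. That gene was Hsp70. In the same fit 3.01% of all genes were called higher and 1.89% lower. At an unadjusted p under 0.05, 3 of the 7 were higher (hsp101, Hsp70 and hsp1) and 0 lower, beside 9.31% of all genes higher and 7.69% lower. limma-voom on the recovered reads called 2 higher (hsp101 and Hsp70) and 0 lower, where 4.27% of all genes were higher and 4.21% lower. The median log2 fold change was 0.10 over the 7 genes and -5.89e-04 over all genes tested. Unless voom is named, a fold change here is a difference of log2(TPM + 1), which understates the change of genes below 1 TPM. The 742 higher and 465 lower calls among all genes became 661 and 629 when the 100 most abundant genes were left out of the TPM, and 552 and 605 after quantile normalization.

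**Figure D2:**
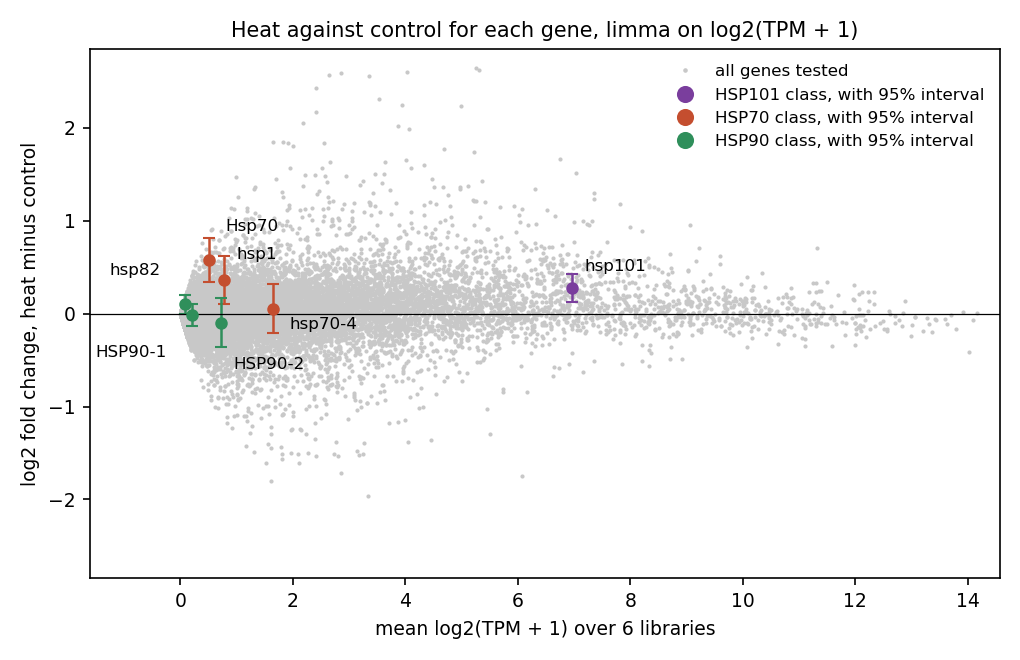
Log2 fold change (heat minus control, limma on log2(TPM + 1)) against mean log2(TPM + 1) for all tested genes (grey) and for the 7 chaperone genes, with 95% intervals. The intervals of hsp101, Hsp70 and hsp1 lie above 0 before adjustment, and those of the other 4 genes include 0.

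The libraries of the groups did not overlap for 4 of the 7 genes. For hsp101, Hsp70 and hsp1 all heat libraries were above all controls, as they were for 11.6% of all genes above 0. For HSP90-2 all heat libraries were below all controls, as for 8.92% of all genes. The groups overlapped for hsp70-4, HSP90-1 and hsp82.

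**Figure D3:**
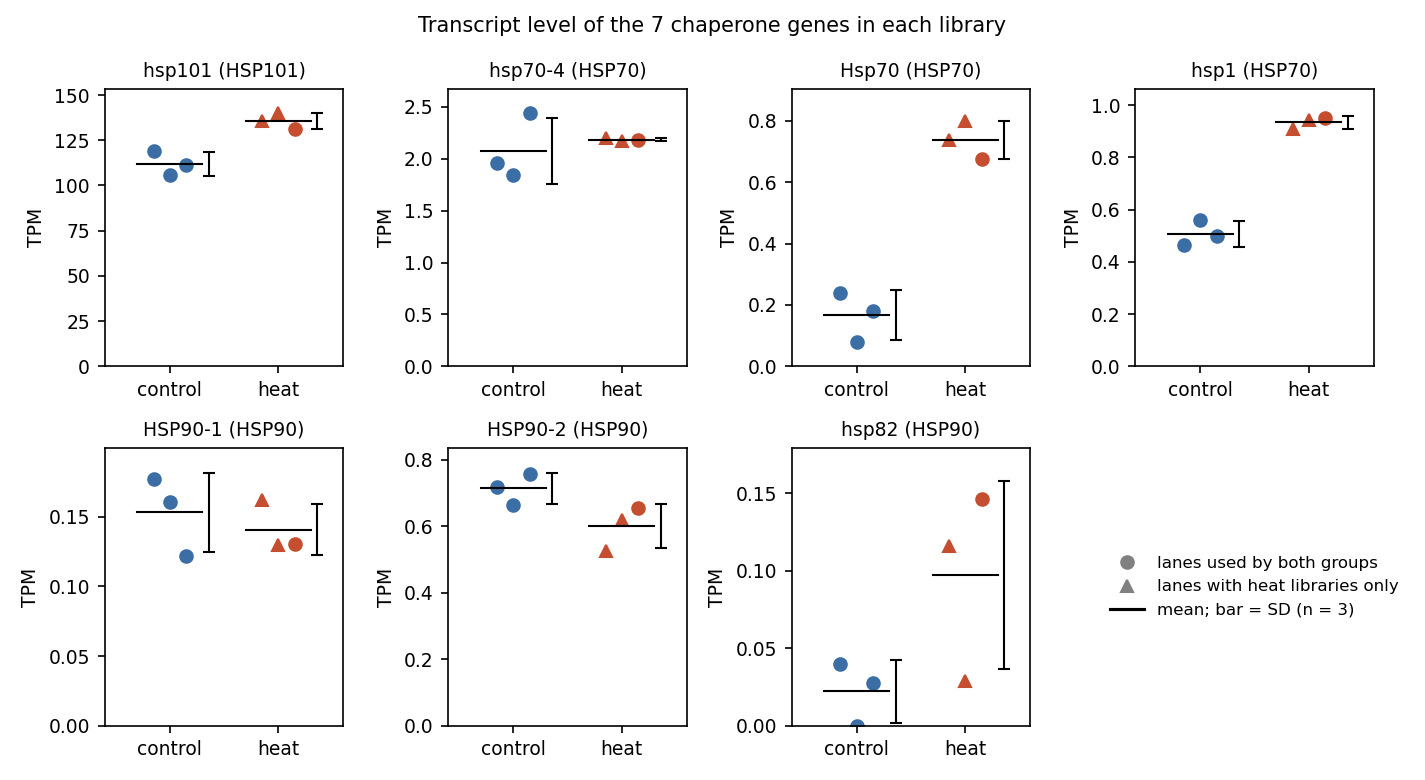
TPM of each chaperone gene in each library, with the mean as a line and the SD (n = 3) as a bar; each panel has its own axis from 0. Circles are libraries on the lanes that both groups used and triangles those on lanes that held heat libraries alone. Heat replicate 3, the circle among the heat libraries, lies above all controls for hsp101, Hsp70 and hsp1.

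hsp101 encodes the ClpB-type disaggregase. It had 119, 106 and 111 TPM in controls 1, 2 and 3 and 136, 140.2 and 131 TPM in heat replicates 1, 2 and 3. Every heat library was above every control, and the lowest heat library was 1.10 times the highest control. The means were 112.0 ± 6.74 TPM in control and 135.8 ± 4.45 TPM in heat (SD, n = 3 each), a ratio of 1.21. The log2 fold change was 0.28 (SE 0.07, 95% interval 0.13 to 0.43). Its adjusted p was 0.0509 in the fit of all genes, just outside the threshold. With the fit limited to the 8615 genes that reached 1 TPM in at least 3 libraries, where 13.0% of genes were called higher, it was 0.0156, and with limma-voom 0.0178. Quantile normalization gave a log2 fold change of 0.09 (SE 0.05, adjusted p = 0.427). A fit with a lane term gave 0.23, which rests on heat replicate 3 alone against the controls.

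hsp70-4 was the most abundant of the 3 HSP70-named genes described. Its TPM was 1.95, 1.84 and 2.44 in controls 1, 2 and 3 and 2.20, 2.17 and 2.18 in heat replicates 1, 2 and 3. The heat libraries were nearly equal and lay inside the range of the controls. The log2 fold change was 0.05 (SE 0.12, adjusted p = 0.846), with a 95% interval from -0.21 to 0.32 that holds modest changes in either direction.

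Hsp70 was close to the detection limit in control pollen. Its TPM was 0.240, 0.0793 and 0.181 in controls 1, 2 and 3, from 11, 3 and 6 reads. In heat replicates 1, 2 and 3 it was 0.736, 0.800 and 0.677, from 23, 25 and 21 reads. The lowest heat library was 2.81 times the highest control. Hsp70 rose from 0.167 ± 0.0815 to 0.738 ± 0.0617 TPM (SD, n = 3 each), by 0.58 on the log2(TPM + 1) scale (SE 0.11, adjusted p = 0.0163). With limma-voom, which works on reads and adds little to low values, the log2 fold change was 2.09 (SE 0.40, adjusted p = 2.55e-04). Summed over libraries, 20 control and 69 heat reads gave a ratio per depth of 4.31, with an exact 95% interval from 2.59 to 7.48 that covers counting error only.

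The call of Hsp70 in the fit of all genes did not hold with every library left out. The adjusted p was 0.0560 without control replicate 1, 0.0650 without control replicate 2, 0.0711 without control replicate 3 and 0.0560 without heat replicate 2. On the lanes that both groups used, heat replicate 3 was 4.06 times the control mean, beside 4.41 and 4.79 times for heat replicates 1 and 2 on the other lanes. A lane term in the fit left a log2 fold change of 0.53, which rests on heat replicate 3 alone against the controls. Over the 16 alternatives that tested Hsp70 the adjusted p ran from 2.55e-04 with limma-voom to 0.207 on the shared lanes alone.

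hsp1, the last of the 3 HSP70-named genes described, had 0.465, 0.562 and 0.498 TPM in controls 1, 2 and 3. It had 0.907, 0.945 and 0.951 TPM in heat replicates 1, 2 and 3. The heat libraries were tightly grouped, and the lowest of them was 1.61 times the highest control. The log2 fold change was 0.36 (SE 0.12, 95% interval 0.10 to 0.62), and the adjusted p of 0.136 missed the threshold. limma-voom gave 0.83 (SE 0.29, adjusted p = 0.0705). The 50 control and 74 heat reads gave a ratio per depth of 1.85, with an exact 95% interval from 1.27 to 2.70. Heat replicate 3, on the lanes shared with the controls, was 1.87 times the control mean, and heat replicates 1 and 2 were 1.78 and 1.86 times that mean.

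Together the 3 HSP70-named genes summed to 2.66, 2.48 and 3.12 TPM in controls 1, 2 and 3 and to 3.84, 3.91 and 3.81 TPM in heat replicates 1, 2 and 3. All heat sums were above all control sums, as were the values of hsp1 and Hsp70 singly, whereas hsp70-4 overlapped between groups. How often sums of other genes separate in this way was not computed. hsp70-4 made up between 73.5% and 78.2% of the sum in control and between 55.4% and 57.3% in heat. The share of hsp1 was between 16.0% and 22.6% in control and between 23.6% and 25.0% in heat, and that of Hsp70 was between 3.20% and 9.04% in control and between 17.8% and 20.5% in heat.

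**Figure D4:**
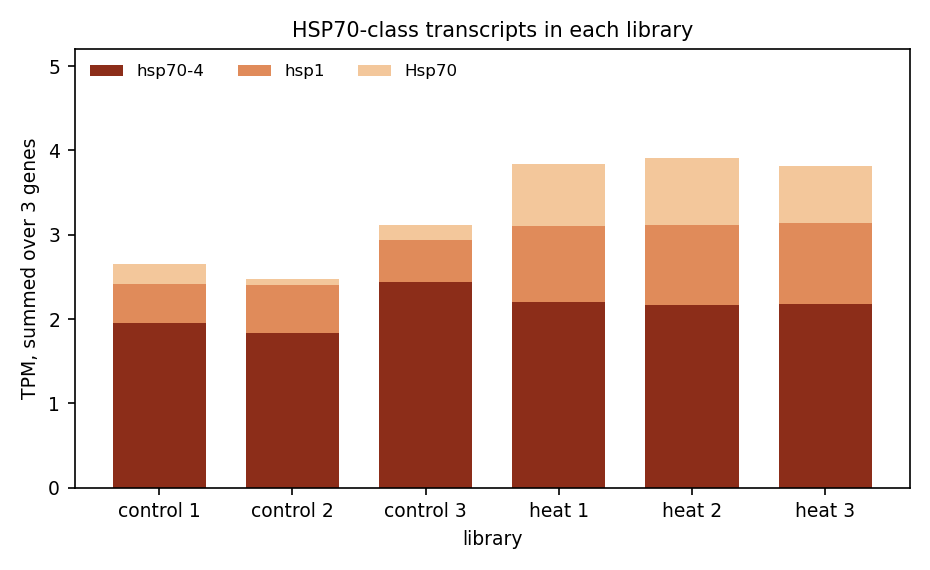
TPM of hsp70-4, hsp1 and Hsp70 stacked for each of the 6 libraries. The hsp70-4 segment stays between 1.84 and 2.44 TPM throughout, and the segments of hsp1 and Hsp70 are each taller in all heat libraries than in all controls.

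Differences between members of a class were compared within libraries, on log2(TPM + 1), for 6 pairs. The gap between hsp70-4 and Hsp70 was 1.40 on average in control and 0.87 in heat. Between hsp70-4 and hsp1 it was 1.02 and 0.72, and between hsp1 and Hsp70 it was smaller in heat by 0.22. The gap between HSP90-2 and hsp82 was 0.75 in control and 0.55 in heat. The gaps are formed from the same TPM values as the single genes, and that with hsp82 rests on 0 to 5 hsp82 reads per library. Each of these 4 gaps holds Hsp70, hsp1 or HSP90-2, whose own libraries did not overlap between groups. How often gaps between other pairs of genes overlap was not computed. None of these 4 gaps overlapped between groups. The exact two-sided permutation p was 0.1 for each, the smallest that 3 libraries against 3 allow, and 0.15 after adjustment over the 6 pairs, so this permutation test cannot place them past the threshold.

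HSP90-2 was the most abundant of the 3 HSP90-named genes described. Its TPM was 0.719, 0.665 and 0.758 in controls 1, 2 and 3 and 0.526, 0.619 and 0.655 in heat replicates 1, 2 and 3. The heat libraries were all lower, the closest by less than the spread within either group. The log2 fold change was -0.10 (SE 0.12, 95% interval -0.36 to 0.16, adjusted p = 0.723), and limma-voom gave -0.29 (SE 0.27, adjusted p = 0.618).

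HSP90-1 had 0.177, 0.160 and 0.122 TPM in controls 1, 2 and 3 and 0.162, 0.130 and 0.130 TPM in heat replicates 1, 2 and 3. The groups overlapped. The log2 fold change was -0.02 (SE 0.05, adjusted p = 0.905), and the limma-voom value of -0.14 had a 95% interval from -1.17 to 0.89, so a change of moderate size in either direction was not detectable at this depth.

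hsp82 was the lowest of the 7. In controls 1, 2 and 3 the reads numbered 2, 0 and 1, or 0.0396, 0 and 0.0273 TPM. Heat replicates 1, 2 and 3 gave 4, 1 and 5, or 0.116, 0.0290 and 0.146 TPM. The count of 0 in control replicate 2 allows up to 0.0718 TPM (3 reads). The heat libraries split, with replicate 2 inside the control range and replicates 1 and 3 above it. The 3 control and 10 heat reads gave a ratio per depth of 4.16 with an exact 95% interval from 1.07 to 23.5, and limma gave an adjusted p of 0.313.

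The 3 HSP90-named genes summed to between 0.825 and 0.936 TPM in control and between 0.778 and 0.931 TPM in heat, and these sums overlapped.

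Other named genes of the chaperone system were described beside the 7, from lists built on name patterns. Of 42 such models 4 were at 0 in all libraries, and of the 38 tested 5 rose, 1 fell and 32 were not called, with a median log2 fold change of -0.0094. Of all genes in that fit, 3.01% were called higher and 1.89% lower. Of 18 tested genes of protein folding in the endoplasmic reticulum 2 rose and 16 were not called (median log2 fold change 0.02). The protein disulfide isomerase gene pdi7 (GRMZM2G159369) rose from 25.7 ± 0.58 to 37.9 ± 2.38 TPM (adjusted p = 0.0044), and pdi4 (GRMZM2G034143, with several RefSeq matches) from 29.5 ± 1.55 to 38.3 ± 2.87 TPM (adjusted p = 0.0376). These were the most abundant genes of the list. The call of pdi7 held with any 1 library left out (adjusted p 0.0085 to 0.0402), whereas that of pdi4 was lost with any 1 left out (0.0709 to 0.145), with the replicate number as a block (0.0545), without the 100 most abundant genes (0.0548) and after quantile normalization (0.139). The BiP genes bip1 (GRMZM2G114793) and bip2 (GRMZM2G415007), which encode the HSP70 of the endoplasmic reticulum and were picked for that relation, were not called: bip1 had 1.73 ± 0.75 and 2.03 ± 0.38 TPM, and bip2 0.894 ± 0.175 and 0.673 ± 0.053 TPM in control and heat.

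Small heat shock proteins hold unfolding proteins in a state from which HSP70 and HSP101 can refold them. Of 6 tested genes 2 rose, 1 fell and 3 were not called (median log2 fold change 0.15). Among all genes of the fit 3.01% rose and 1.89% fell. The log2 fold change was 1.13 (SE 0.15, adjusted p = 0.0028) for hsp18c (GRMZM2G034157), 0.65 (SE 0.14, adjusted p = 0.0292) for hsp18f (GRMZM2G083810) and -0.75 (SE 0.13, adjusted p = 0.0137) for hsp18a (GRMZM2G404249). With single libraries left out hsp18c kept its call (adjusted p 0.0136 to 0.0269). hsp18f kept its call when heat replicate 1 was left out (0.0470) and lost it when any other library was (0.0569 to 0.143), and hsp18a lost it without control replicate 1 (0.0753), heat replicate 2 (0.0502) or heat replicate 3 (0.0565). Like Hsp70, these genes lay low, at no more than 2.35 TPM in any library.

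Heat shock factors are transcription factors, some of which drive chaperone genes. limma-voom called 2 of the 10 tested genes higher and 3 lower, where 4.27% of all genes were higher and 4.21% lower. In the limma fit 1 rose and 9 were not called (median log2 fold change -0.03), beside 3.01% and 1.89% of all genes. The gene that rose was Hsf01 (GRMZM2G165998, with several RefSeq matches), at 1.16 ± 0.11 TPM in control and 2.14 ± 0.33 TPM after heat (adjusted p = 0.0433). Its call was lost with any 1 library left out (0.0512 to 0.153) and with the replicate number as a block (0.0720). With a lane term the heat effect rests on heat replicate 3 alone, so that fit cannot decide whether the 6 calls in these lists hold. It gave log2 fold changes of 0.57 for pdi7, 0.26 for pdi4 and 0.97 for hsp18c. For hsp18f, hsp18a and Hsf01 it gave 0.59, -0.67 and 0.52. The most abundant model, Hsf05 (GRMZM2G133023), had 4.47 ± 0.15 and 3.94 ± 0.62 TPM (adjusted p = 0.591).

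Limma and limma-voom each called 0 of 2 tested mitochondrial chaperonin genes (median log2 fold change -0.21; 1 lower at an unadjusted p under 0.05, as were 7.69% of all genes) and 0 of 2 tested co-chaperone genes (median -0.02; 0 at an unadjusted p under 0.05). The TPM of CPN60II (GRMZM2G416120) was 0.850 ± 0.204 in control and 0.538 ± 0.175 in heat (adjusted p = 0.412). CPN60I (GRMZM2G111477) had 0.108 ± 0.042 TPM in control and was at 0 in each heat library (unadjusted p = 0.0033, adjusted p = 0.0600). SGT1 (GRMZM2G149704), named for a co-chaperone of HSP90, stayed at or below 0.0447 TPM and Fes1B (GRMZM5G804658), named for a nucleotide exchange factor of HSP70, at or below 0.0460 TPM.

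Genes with a profile like that of hsp101 were sought among 52 named genes with a mean from 0.5 to 2 times its own. The measure was the mean absolute difference between log2(TPM + 1) values, each centred on its gene's mean over the 6 libraries. Those ranked 2 to 5 by this measure are described. They were gar1 (GRMZM2G061695), at 175.6 ± 7.95 TPM in control and 222.1 ± 5.64 TPM after heat, with a difference of 0.030, and mlo6 (GRMZM2G325653), at 140.9 ± 8.65 and 172.7 ± 3.85 TPM, followed by DIP1 (GRMZM2G010302) and cts1 (GRMZM2G063851). The last 3 each had a difference of 0.034.

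**Figure D5:**
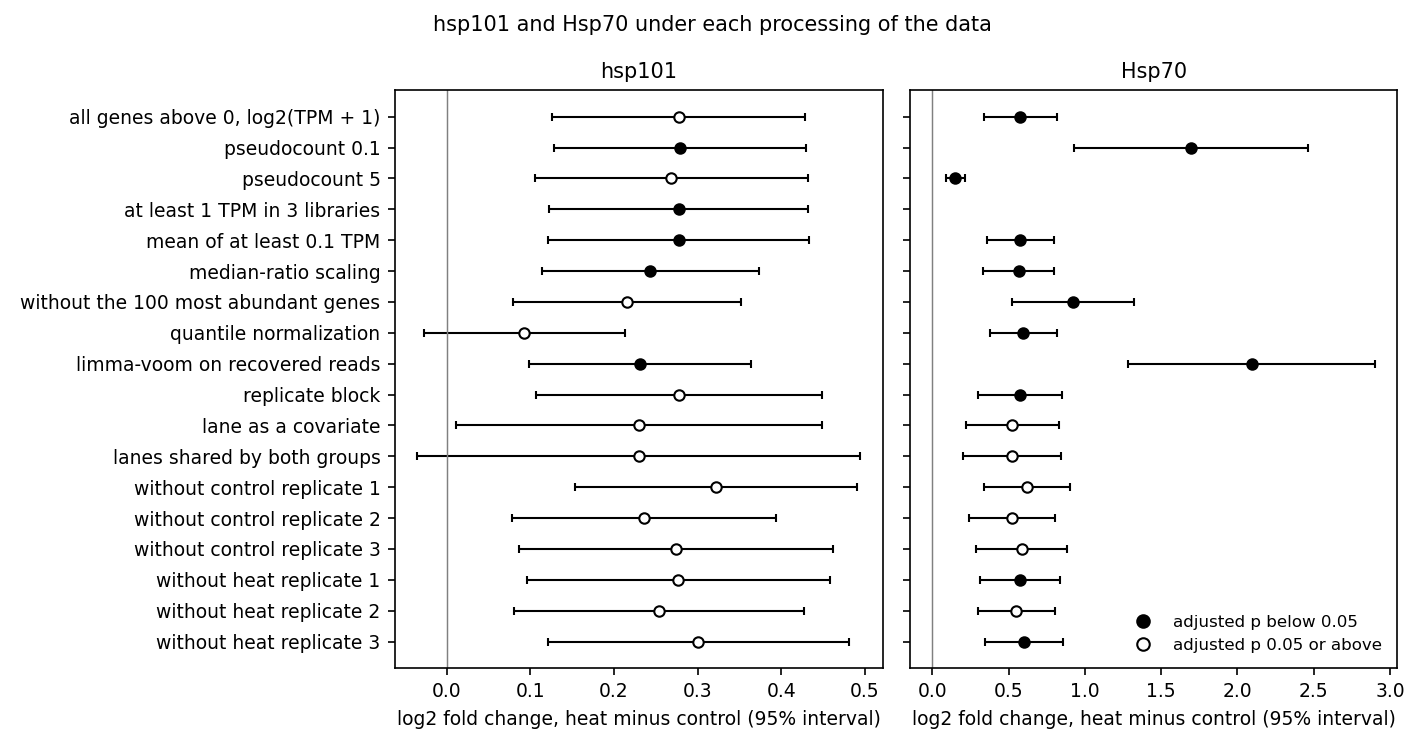
Log2 fold change (heat minus control) with its 95% interval for hsp101 and Hsp70 under each processing of the data; filled points passed an adjusted p of 0.05. Values with other pseudocounts and from limma-voom are on other scales. In the lane fits heat replicate 3 alone sets the heat effect. Both estimates stay above 0 throughout; hsp101 passed under 5 of 17 alternatives and Hsp70 under 10 of the 16 that could test it.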

How the data were processed

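The deposited table holds TPM made by the authors for 39625 gene models. The submitters' processing notes name the build B73 RefGen_v3 and the tools STAR 2.5.2a, Trimmomatic 0.35, featureCounts, FastQC and DESeq2, without saying what each did. Names came from synonyms in a RefSeq table of another assembly, Zm-B73-REFERENCE-NAM-5.0, used for names alone, which matched 18908 models.

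Whole reads and gene lengths were recovered from ratios of TPM between libraries for all 24654 models above 0 (tolerance 0.01 reads); the method was tested on simulated data, where reads came out right up to a common divisor. The lengths so found for the 7 genes were 2186 to 3168 bases. Intervals on reads cover counting error only.

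Heat and control were compared with limma 3.58.1 (R 4.3.3) on log2(TPM + 1) values (trended variance, two-sided, Benjamini-Hochberg adjustment over all genes in the fit, threshold 0.05), with all models above 0 because the 7 genes were taken unfiltered. The test was also run on simulated data. limma-voom used the recovered reads with trimmed-mean scaling. No pair of libraries within a group agreed within sampling noise (smallest chi-square per degree of freedom 4.59).

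The 7 genes and the lists were chosen with earlier results of these data known. Named by rule were the 7 genes, the 2 most abundant members and up to 2 called rises and 2 called falls of each list, and the 5 genes most like hsp101, of which the closest is not reported here. Name hits of another meaning were removed from the lists. Planned comparisons of protein and promoter sequence were not made here.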

Additional observations from a re-analysis of the deposited data

How the results depend on the processing

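Direction was kept by hsp101, Hsp70, hsp1, HSP90-1, HSP90-2 and hsp82 under every alternative that tested them; hsp70-4 ran from -0.0019 to 0.14 on the log2 scale with single libraries left out, and Fes1B (GRMZM5G804658) from -3.40e-04 to 0.0321, both across 0. Of the 7 genes, 2 were called higher with a pseudocount of 0.1, with a mean of at least 0.1 TPM, with median-ratio scaling and with limma-voom (hsp101 and Hsp70 each time), in fits that called 3.31%, 6.67%, 3.02% and 4.27% of all genes higher. The filter at 1 TPM called 1, hsp101, and does not test Hsp70. Heat replicate 3 alone sets the heat effect with the lane as a covariate and on the lanes shared by both groups. On the shared lanes it is assumed to vary like the controls. Both fits gave log2 fold changes of 0.23 for hsp101, 0.05 for hsp70-4, 0.53 for Hsp70 and 0.37 for hsp1. For HSP90-1, HSP90-2 and hsp82 they gave -0.03, -0.05 and 0.17. With single libraries left out 0 to 1 of the 7 were called higher and 0 lower, beside 1.44% to 2.55% and 0.513% to 1.53% of all genes.

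Over all genes, against 742 higher and 465 lower, the filter at 1 TPM gave 1123 higher, limma-voom 1039 lower, the lane covariate 161 and 6, and the shared lanes 0 and 0 (2393 and 1231 unadjusted). Leaving out single libraries gave 347 to 617 higher and 124 to 368 lower. In the chaperone lists, against 5 higher and 1 lower, the replicate block gave 3 higher; the numbers lower were 2 with a pseudocount of 0.1 and with the filter at 1 TPM, 3 with a mean of at least 0.1 TPM and 5 with limma-voom. Neither lane fit can decide whether the list calls hold, because heat replicate 3 alone sets its heat effect. Single libraries left out gave 2 to 3 list genes higher and 0 to 2 lower, beside 1.44% to 2.55% and 0.513% to 1.53% of all genes. The cause was not tested.

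Replicate numbers are shared by the groups, but same-numbered libraries did not all deviate together (correlations of deviations from the group means 0.0711, 0.0724 and -0.0383 for numbers 1, 2 and 3). Differently numbered libraries gave correlations from -0.162 to 0.106, a range that holds the same-numbered values. With the replicate block 1 of the 7 genes and 2.78% of all genes were called higher, the 1 being Hsp70 (adjusted p = 0.0345), and hsp101 had an adjusted p of 0.0871. Depth limits the 5 genes below 1 TPM, for which a library holds at most 34 reads.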
